A study of Caenorhabditis elegans with 6 samples.

Results

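Genes of lysosomal acidification and protein digestion were examined in intestinal and non-intestinal cells of the worm Caenorhabditis elegans, taken from first-stage (L1) larvae. The members were chosen by name: every row of the count table whose symbol was vha, asp, cpr, cpl or cpz with a number, or unc-32. This gave 40 genes of 14605 worm gene rows, of which 19 were proton pump genes, 10 aspartic protease genes and 11 cysteine protease genes. Genes of these families under other names were counted as members only where they met that rule. RNA came from 3 pools of intestinal cells and 3 pools of non-intestinal cells dividing at that stage. Each pool held 500 cells with a DNA content of 4N. All 6 pools carried the same transgene, ccyIS27, which holds elt-2p::mCherry-PH-P2A-H2B-mCherry. In it the promoter of elt-2, an intestinal GATA factor gene, drives a red fluorescent membrane and histone marker. The libraries were made by an adapted CEL-seq protocol, which counts the 3′ ends of transcripts. The non-intestinal pools are a mixture of cell types, and the labels do not give their proportions.

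The vacuolar proton pump (V-ATPase) uses ATP to move protons into lysosomes, endosomes and secretory vesicles, and across the plasma membrane of some cells. Its cytosolic V1 sector splits ATP and its membrane V0 sector carries the protons. The worm genome has several genes for the a subunit of V0, and the a subunit is known for deciding in which membrane the pump resides. Aspartic proteases of the cathepsin D family and papain-like cysteine proteases (cathepsins B, L and Z) work best at acid pH. In the worm intestine they degrade proteins in lysosomes and in the gut lumen.

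Library totals of worm gene counts ran from 1222704 to 21040813, and replicate 3 had the fewest in both groups. Levels are given in CPM, counts relative to the TMM-scaled library total. Where a gene has 0 counts, a true level of up to 3 counts cannot be told from 0. That floor equals 2.45 CPM for the shallowest library and 0.143 CPM for the deepest. Intestinal markers summed to 6358 ± 435 CPM in the intestinal and 121.8 ± 68.6 CPM in the non-intestinal ones (SD, n = 3 each). Most of both sums came from act-5, with means of 4192 and 96.8 CPM. All 8 intestinal markers lay higher in every intestinal library than in any non-intestinal one. The endogenous elt-2 had 42.4, 38.0 and 59.1 CPM in intestinal replicates 1, 2 and 3, and 0.159, 1.72 and 0 CPM in the non-intestinal ones. Body wall muscle markers were present in both groups, at 1401 ± 641 CPM in the intestinal and 1997 ± 1139.6 CPM in the non-intestinal ones (SD, n = 3 each), mostly from unc-54. The muscle myosin gene myo-3 was nearly absent from both groups, with 0, 0 and 0 counts against 1, 1 and 0. Germline markers summed to 41.4 ± 46.7 and 788 ± 202 CPM (SD, n = 3 each), in the same order.

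The proton pump genes were mostly higher in intestinal cells. Their summed level was 30063, 25007 and 14103 CPM in intestinal replicates 1, 2 and 3, and 2353, 2879 and 1634 CPM in non-intestinal replicates 1, 2 and 3. Each intestinal library was above each of the other group, and the ratio of the group means was 10.1. Of the 19 genes, 14 rose in intestinal cells, 1 fell, 3 were not called and 1 was too low to test. Calls were made with edgeR's quasi-likelihood test where the adjusted p was under 0.05. Over all 9203 genes tested, 13.5% were called higher and 7.64% lower in intestinal cells. The median log2 fold change among the 18 tested pump genes was 3.17, beside −0.34 for all tested genes. Intestinal values were all above the non-intestinal ones for 14 tested pump genes, 6 aspartic and 10 cysteine protease genes, as for 21.9% of all tested genes, and all below them for 2 pump genes, as for 23.5% of all. In pools of this kind, fewer cells that express a gene and less RNA per cell cannot be told apart. Labels name the 6 libraries as biological replicates without saying whether the larvae were grown separately, so p-values measure the spread between these libraries.

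**Figure D1:**
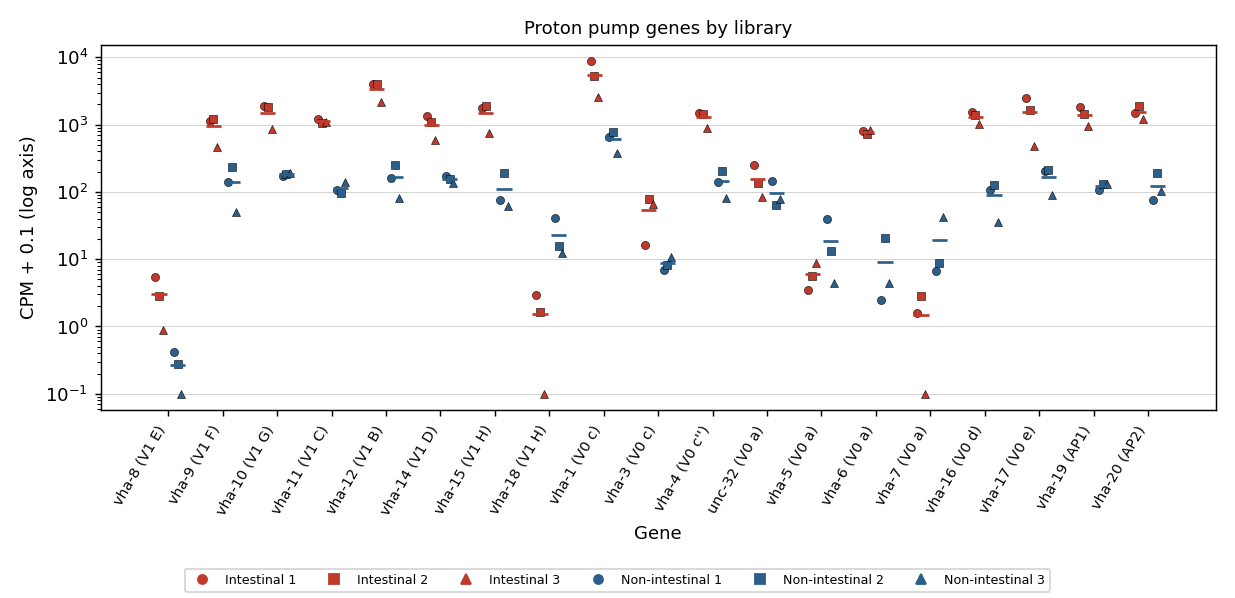
Levels of the 19 proton pump genes in each library, as CPM + 0.1 on a log axis, with the subunit each gene encodes in brackets and a bar at the mean of 3 libraries. Intestinal points lie above the non-intestinal points for 14 tested genes, whereas vha-18 and vha-7 lie the other way round.

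In the V1 sector, 6 of the 8 member genes rose. No row carried the symbol of the A subunit gene vha-13, so it is not among them. The B subunit, which holds part of the ATP-binding sites, is encoded by vha-12 (F20B6.2, chrX:4191094-4193144, plus strand, coordinates of WBcel235 throughout). It had 4061, 3963 and 2176 CPM in the intestinal and 162, 254 and 81.3 CPM in the non-intestinal libraries, in the order of replicates 1, 2 and 3, which is kept below. The lowest intestinal value was far above the highest non-intestinal one, and the log2 fold change was 4.36 ± 0.53 (SE, adjusted p = 0.00060). Of the V1 genes called, vha-12 had the largest fold change. The H subunit gene vha-15 (T14F9.1, chrX:2237911-2240255, plus strand) had 1765, 1906 and 756 against 76.4, 189 and 61.2 CPM. The groups did not overlap, for a log2 fold change of 3.76 ± 0.59 (SE, adjusted p = 0.0018). Without non-intestinal replicate 2, the highest of its group for both genes, the log2 fold changes were 5.1 for vha-12 and 4.70 for vha-15.

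The stalk subunits of V1 also rose. The C subunit gene vha-11 (Y38F2AL.3, chrIV:2307815-2314567, minus strand) had 1229, 1065 and 1101 CPM in the intestinal libraries and 106, 95.9 and 138 CPM in non-intestinal libraries. Its replicates were close together in both groups, and the log2 fold change was 3.32 ± 0.42 (SE, adjusted p = 0.00066). For the G subunit gene vha-10 (F46F11.5, chrI:5609341-5610270, minus strand) the values were 1869, 1821 and 851 and 173, 184 and 192 CPM. The 3 non-intestinal libraries were nearly equal, intestinal replicate 3 was lower than the other two, and the log2 fold change was 3.05 ± 0.45 (SE, adjusted p = 0.0013). The D subunit forms the central shaft, and its gene vha-14 (F55H2.2, chrIII:9508100-9509757, plus strand) had 1339, 1080.2 and 582 against 174, 156 and 134 CPM. The F subunit gene vha-9 (ZK970.4, chrII:10303050-10303713, minus strand) had 1148, 1209 and 469.7 against 140.5, 232 and 50.4 CPM. Neither gene overlapped between groups, with log2 fold changes of 2.69 ± 0.46 for vha-14 (SE, adjusted p = 0.0027) and 2.74 ± 0.62 for vha-9 (SE, adjusted p = 0.011). That of vha-9 was 3.57 without non-intestinal replicate 2.

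A pair of V1 genes stood apart from the rest of the sector. The H subunit has a second gene, vha-18 (F52E1.10, chrV:8411775-8413482, minus strand), and it was the 1 pump gene that fell. Its counts were 34, 27 and 0 in the intestinal and 253, 349 and 23 in the non-intestinal libraries, or 2.82, 1.55 and 0 against 40.2, 15.8 and 12.5 CPM. Every non-intestinal library was above every intestinal one, and the log2 fold change was −3.77 ± 1.07 (SE, adjusted p = 0.030). The gene reached the filter level of 0.915 CPM in each non-intestinal library but in only 2 intestinal ones. The direction of vha-18 is therefore given as a description. The call was lost without intestinal replicate 1 (adjusted p = 0.063), intestinal replicate 2 (0.081), non-intestinal replicate 1 (0.15) or non-intestinal replicate 2 (0.062), with log2 fold changes of −4.41, −3.67, −2.97 and −3.75. The gene overlaps F52E1.2 on the opposite strand, and whether strand was used in counting is not stated, so reads of overlapping genes cannot be told apart here or for the other pairs named below. Germline markers were lower in intestinal libraries too, and their part in the level of vha-18 was not tested. Within each library the share of H subunit counts from vha-18 was at most 0.159% in the intestinal libraries. In the non-intestinal libraries it was 34.5% (31.1 to 38.0), 7.72% (6.97 to 8.53) and 16.9% (11.5 to 24.1), with 95% Wilson intervals that cover counting error only. These shares were formed after the values of both genes were known, and they were not tested.

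The gene of the E subunit, vha-8 (C17H12.14, chrIV:6791074-6792455, plus strand), a part of the peripheral stalk, had very few counts in all 6 libraries. They were 65, 47 and 1 in intestinal and 2, 4 and 0 in non-intestinal libraries. The gene did not pass the filter and was not tested. Per kilobase of annotated exon, its mean level was 2.61 CPM in intestinal libraries, where the 6 V1 genes that rose had 699 to 2350.3 CPM per kilobase. Counts of 3′ ends do not grow with transcript length in the way full-length coverage does, so the per-kilobase scale is approximate here. No annotated protein-coding gene or pseudogene overlapped vha-8 on either strand. Whether the authors' counting covered the 3′ end of its transcript could not be checked, so the counts are no measure of how strongly the gene is expressed.

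In the V0 sector, 6 of the 9 member genes rose. No row carried the symbol of the c subunit gene vha-2, so it is part neither of this count nor of the c subunit shares below. The c subunits form the rotating ring that binds protons. The c subunit gene vha-1 (R10E11.8, chrIII:9781254-9781763, plus strand) had 8745, 5231 and 2563 CPM in the intestinal and 650.1, 769.8 and 385 CPM in non-intestinal libraries. Intestinal replicate 1 was more than 3 times as high as replicate 3, yet the groups did not overlap, for a log2 fold change of 3.2 ± 0.51 (SE, adjusted p = 0.0019). The c″ subunit gene vha-4 (T01H3.1, chrII:7878082-7879316, minus strand) had 1494, 1449 and 899 against 142, 207 and 81.8 CPM and a log2 fold change of 3.16 ± 0.49 (SE, adjusted p = 0.0017). That value was 3.82 without non-intestinal replicate 2. A further c subunit gene, vha-3 (Y38F2AL.4, chrIV:2315460-2315945, minus strand), is followed at a distance of 892 bases on the same strand by vha-11. It had 16.2, 77.1 and 67.1 CPM in the intestinal and 6.83, 8.02 and 10.8 CPM in non-intestinal libraries. Intestinal replicate 1 was the lowest of its group but above all non-intestinal libraries. The log2 fold change was 2.65 ± 0.77 (SE, adjusted p = 0.033). That call was lost without intestinal replicate 2 or 3 (adjusted p = 0.11 and 0.059) and without non-intestinal replicate 1 or 2 (adjusted p = 0.068 and 0.063), where it ranged from 2.30 to 2.98. Since the c subunit genes encode very similar proteins, reads could have been divided between them, and the separate value of vha-3 is uncertain.

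The c subunit genes did not shift in proportion beyond the spread between libraries. The share of vha-1 in the summed counts of vha-1, vha-3 and vha-4 was 78.4 ± 6.39% in the intestinal and 80.1 ± 1.68% in the non-intestinal ones (SD, n = 3 each). The difference of −1.62 percentage points was within the spread between libraries (exact two-sided permutation p = 0.7, adjusted 0.7 over 7 shares). For vha-4 the shares were 20.5 ± 5.52% and 18.6 ± 2.08% (SD, n = 3 each; exact permutation p = 0.6, adjusted 0.7). With single libraries left out, the difference for vha-4 lay between −0.621 points, without intestinal replicate 3, and 4.84 points, without intestinal replicate 1. With 3 libraries against 3 the smallest possible p is 0.1, and a p above it does not show that the shares are equal.

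The d and e subunits and the accessory proteins also rose. The d subunit gene vha-16 (C30F8.2, chrI:5079910-5082279, minus strand), which links the ring to the central shaft, had 1517, 1370.4 and 1029 CPM in the intestinal and 107, 129 and 35.8 CPM in non-intestinal libraries. Intestinal values were at least several times higher than any non-intestinal one, for a log2 fold change of 3.85 ± 0.55 (SE, adjusted p = 0.0012). The small e subunit gene vha-17 (F49C12.13, chrIV:9321801-9322525, plus strand) had 2453, 1663 and 481 against 201, 212 and 90.0 CPM. Intestinal replicate 3 was the lowest of its group but above each non-intestinal library, and the log2 fold change was 3.19 ± 0.63 (SE, adjusted p = 0.0056). The accessory gene vha-19 (Y55H10A.1, chrIV:3369197-3373485, plus strand), the counterpart of human ATP6AP1, had 1854, 1429 and 959 against 107, 132 and 129.5 CPM. Its log2 fold change was 3.52 ± 0.44 (SE, adjusted p = 0.00065), with 3 closely placed non-intestinal libraries. The counterpart of the human prorenin receptor, ATP6AP2, is vha-20 (R03E1.2, chrX:14163099-14164506, minus strand), with 1513, 1868 and 1230.1 against 75.3, 189.5 and 102 CPM. Its log2 fold change was 3.65 ± 0.49 (SE, adjusted p = 0.00091). The log2 fold changes without non-intestinal replicate 2 were, for vha-20, 4.44 and, for vha-16, 4.5. On the opposite strand, vha-17 overlaps nspg-11 and vha-19 overlaps otub-4.

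Of the 4 a subunit genes, 1 rose and 3 were not called. The gene vha-6 (VW02B12L.1, chrII:11435210-11438452, minus strand), whose product is known from the apical membrane of the worm intestine, had 793, 728 and 845 CPM in intestinal libraries. In the non-intestinal libraries it had 2.38, 20.7 and 4.34 CPM. Intestinal values agreed closely among replicates, and the log2 fold change of 6.37 ± 0.85 (SE, adjusted p = 0.00090) was the largest among the pump genes. It was 8.30 without non-intestinal replicate 2, which held most of the non-intestinal counts, 15, 456 and 8. The gene unc-32 (ZK637.8, chrIII:8905615-8911756, plus strand), named for the uncoordinated movement of its mutants and best known from neurons, had 254, 135 and 83.9 CPM in the intestinal and 145, 62.7 and 79.7 CPM in non-intestinal libraries. Its groups overlapped and it was not called, for a log2 fold change of 0.72 ± 0.59 (SE, adjusted p = 0.42). That value was 1.37 without non-intestinal replicate 1 (adjusted p = 0.17). The 7 neuronal markers summed to 571 ± 305 CPM in the intestinal and 453 ± 84.2 CPM in the non-intestinal ones (SD, n = 3 each), with 1 (egl-21) called higher, and their part in the level of unc-32 was not tested.

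The other two a subunit genes had higher mean levels in non-intestinal cells. The gene vha-5 (F35H10.4, chrIV:8303968-8307371, plus strand), known from the excretory canal and the epidermis, had 41, 97 and 11 counts in intestinal and 245, 286 and 8 counts in non-intestinal libraries, or 3.40, 5.57 and 8.79 against 38.9, 13 and 4.34 CPM. The groups overlapped and the gene was not called, for a log2 fold change of −1.71 ± 0.97 (SE, adjusted p = 0.24). Non-intestinal replicate 1 held most of the difference, and without it the log2 fold change was −0.36 (adjusted p = 0.89). The gene overlaps F35H10.10 on the opposite strand. For vha-7 (C26H9A.1, chrIV:12640462-12650652, plus strand), known from the epidermis, the counts were 18, 47 and 0 and 42, 191 and 77, or 1.49, 2.7 and 0 against 6.67, 8.65 and 41.7 CPM. Each non-intestinal library was above each intestinal one, and non-intestinal replicate 3 was the highest. The log2 fold change was −3.53 ± 1.19 (SE, adjusted p = 0.057), just outside the threshold. It was called by DESeq2 (DESeq2 adjusted p = 0.0042) and not under the replicate block (adjusted p = 0.11). Without non-intestinal replicate 3 the log2 fold change was −2.13 (adjusted p = 0.28), and without intestinal replicate 2 it was −4.21 (adjusted p = 0.077). Epidermal markers summed to 96.7 ± 46.9 CPM in the intestinal and 374 ± 38.8 CPM in the non-intestinal ones (SD, n = 3 each), and their part in the levels of vha-5 and vha-7 was not tested. Of the 6 epidermal markers, nhr-23 was called lower in intestinal cells and elt-3 higher, with 24.8, 33.5 and 38.3 against 6.04, 8.65 and 6.50 CPM (log2 fold change 2.18 ± 0.70, SE, adjusted p = 0.049, a call made in 0 of 6 fits that left out 1 library). The marker wrt-2 had 0, 0 and 0 counts in the intestinal and 0, 14 and 0 in the non-intestinal libraries.

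The make-up of the a subunit transcripts did not overlap between groups, in a design too small for an adjusted p under 0.05. Of the counts of the 4 genes, vha-6 took 75.4% (74.7 to 76.2), 83.6% (83.0 to 84.2) and 90.1% (88.3 to 91.7) in the intestinal libraries, with 95% Wilson intervals. In the non-intestinal libraries its share was 1.23% (0.748 to 2.02), 19.7% (18.1 to 21.3) and 3.33% (1.70 to 6.44). The mean shares were 83.0 ± 7.37% and 8.08 ± 10.1% (SD, n = 3 each), with an exact two-sided permutation p of 0.1, the smallest possible, and 0.175 adjusted over 7 shares. For unc-32 the share was 24.1, 15.5 and 8.94% in the intestinal and 75.2, 59.7 and 61.2% in non-intestinal libraries. Its groups were apart as well (exact permutation p = 0.1, adjusted 0.175), in the other direction, although its own level was not called different. The shares of vha-5 and vha-7 were at most 0.937% and 0.310% in intestinal libraries. Their mean shares were 11.9 ± 8.41% and 14.6 ± 15.3% in the non-intestinal ones (SD, n = 3; exact permutation p = 0.1 each, adjusted 0.175). Shares of 1 family sum to 100% and are not independent. Non-intestinal replicate 3 held only 240 counts of the family, so its shares are the least precise.

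**Figure D2:**
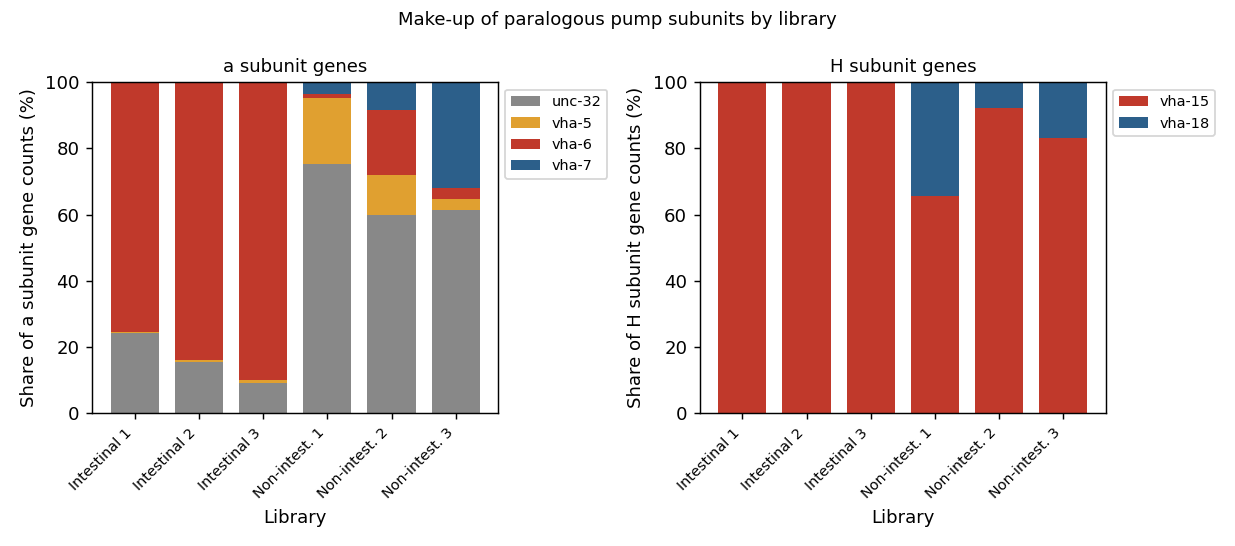
Share of each gene in the summed counts of the a subunit genes (left) and the H subunit genes (right), in percent, for each of the 6 libraries. In intestinal libraries vha-6 takes 75.4 to 90.1% of the a subunit counts, whereas unc-32 takes 59.7 to 75.2% in non-intestinal libraries.

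Most aspartic protease genes rose in intestinal cells, with a larger median fold change than the pump genes, a difference that was not tested. Their summed level was 6335, 5697 and 2867 CPM in the intestinal and 50.4, 116 and 64.5 CPM in non-intestinal libraries. The groups were far apart, with a ratio of the means of 64.6. Of the 10 genes, 6 rose, 0 fell, 1 was not called and 3 were too low to test, against a background of 13.5% of tested genes called higher. The median log2 fold change among the 7 tested genes was 6.43, the value of asp-13. The 6 genes that rose and this median include asp-3, asp-8 and asp-13, whose tests are limited as described next. Of the tested protease genes of both kinds, 7 reached the filter level of 0.915 CPM in each intestinal library but in fewer than 3 non-intestinal ones (asp-3, asp-8, asp-13, cpr-1, cpr-3, cpr-4 and cpr-8). Such genes were tested because of their intestinal counts, so their direction is given as a description. The pump genes vha-7 and vha-18 reached that level in each non-intestinal library and in 2 intestinal ones. Their direction is likewise given as a description. The other 26 of the 35 tested members reached it in all 6 libraries.

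In each intestinal library asp-5 had the most counts of the aspartic protease members. The annotation also names asp-12 beside asp-5, and asp-15 and asp-17 beside asp-16. No row carried these symbols, so they were not counted. The gene asp-5 (F21F8.3, chrV:8272385-8274044, plus strand) had 4212, 3047 and 2070.5 CPM in the intestinal and 12.6, 44.5 and 20.1 CPM in non-intestinal libraries. Each intestinal library was at least 46 times the highest non-intestinal one, and the log2 fold change was 6.91 ± 0.64 (SE, adjusted p = 0.00034). The gene asp-6 (F21F8.7, chrV:8267511-8268937, minus strand), 3447 bases away on the other strand, had 1252, 1456 and 237 against 4.61, 21.6 and 2.71 CPM. Intestinal replicate 3 was well below the other two but above each non-intestinal library, and the log2 fold change was 6.60 ± 1.00 (SE, adjusted p = 0.0015). Beside them lies asp-11 (F21F8.2, chrV:8274353-8275757, plus strand), annotated as a pseudogene, which had 1 count over all 6 libraries. The gene asp-2 (T18H9.2, chrV:9203077-9204734, plus strand) had 610.4, 1026 and 509.6 against 3.34, 14 and 16.3 CPM, with no overlap and a log2 fold change of 6.01 ± 0.72 (SE, adjusted p = 0.00060). It overlaps the innexin gene inx-10 on the opposite strand. Removal of non-intestinal replicate 2 gave 7.90 for asp-5 and 8.24 for asp-6.

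Lower in count, asp-8, asp-13 and asp-3 also rose. For asp-8 (F59D6.3, chrV:3024549-3027931, plus strand) the values were 135, 74.0 and 35.9 CPM in the intestinal and 0.477, 1.95 and 3.79 CPM in non-intestinal libraries. The groups did not overlap, for a log2 fold change of 5.43 ± 0.95 (SE, adjusted p = 0.0033), and 6.11 without non-intestinal replicate 3. Its neighbour asp-7 (F59D6.2, chrV:3028285-3029631, plus strand), 353 bases downstream, had 10, 2 and 4 counts in intestinal and 0, 2 and 0 in non-intestinal libraries and was not tested. The gene asp-13 (F28A12.4, chrV:8641602-8643193, minus strand) had 916, 695 and 7 counts against 0, 8 and 3, or 75.9, 39.9 and 5.59 against 0, 0.362 and 1.63 CPM. Intestinal replicate 1 was the highest, and the log2 fold change was 6.43 ± 1.43 (SE, adjusted p = 0.010). Without that library it was 5.54 and not called (adjusted p = 0.053). It was 7.03 without intestinal replicate 3 and 7.49 without non-intestinal replicate 3. Its non-intestinal counts were too few for a fold without replicate 2. Against a floor of 3 counts per library, asp-13 was then at least 38.49-fold higher.

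The cathepsin D-like genes asp-3 and asp-4 are both known in worms for a part in the necrotic death of neurons. Here asp-3 rose and asp-4 was not called. For asp-3 (H22K11.1, chrX:6791064-6792709, plus strand) there were 421, 254 and 3 counts in intestinal and 0, 7 and 0 in non-intestinal libraries, or 34.9, 14.6 and 2.40 against 0, 0.317 and 0 CPM. The intestinal libraries were all higher, for a log2 fold change of 6.59 ± 1.49 (SE, adjusted p = 0.011). The 3 counts of intestinal replicate 3 equal the floor, so its place above the libraries with 0 counts is uncertain. The log2 fold change was 5.69 and not called without intestinal replicate 1 (adjusted p = 0.067). Without non-intestinal replicate 2 the other non-intestinal libraries had 0 counts, and asp-3 was at least 16.4-fold higher, against a floor of 3 counts per library. With 1 library left out, the fitted value of asp-3 ran from 5.69 to 10.17, so it is no measure of size. The gene asp-4 (R12H7.2, chrX:13218985-13221462, minus strand) had 13.3, 39.3 and 2.40 CPM in the intestinal and 29.4, 32.9 and 20.1 CPM in non-intestinal libraries. Non-intestinal libraries were close together, intestinal ones ranged widely around them, and the gene was not called, for a log2 fold change of −0.55 ± 0.88 (SE, adjusted p = 0.69). Without intestinal replicate 2 it was −1.70 (adjusted p = 0.27). The difference between asp-3 and asp-4 was not itself tested. Of the tested aspartic proteases, asp-4 was the 1 without a higher level in intestinal cells, and it overlaps R12H7.4 on the opposite strand. The last member, asp-16 (Y39B6A.23, chrV:19039030-19042605, minus strand), had 5, 4 and 0 counts in intestinal and 0 in each non-intestinal library.

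**Figure D3:**
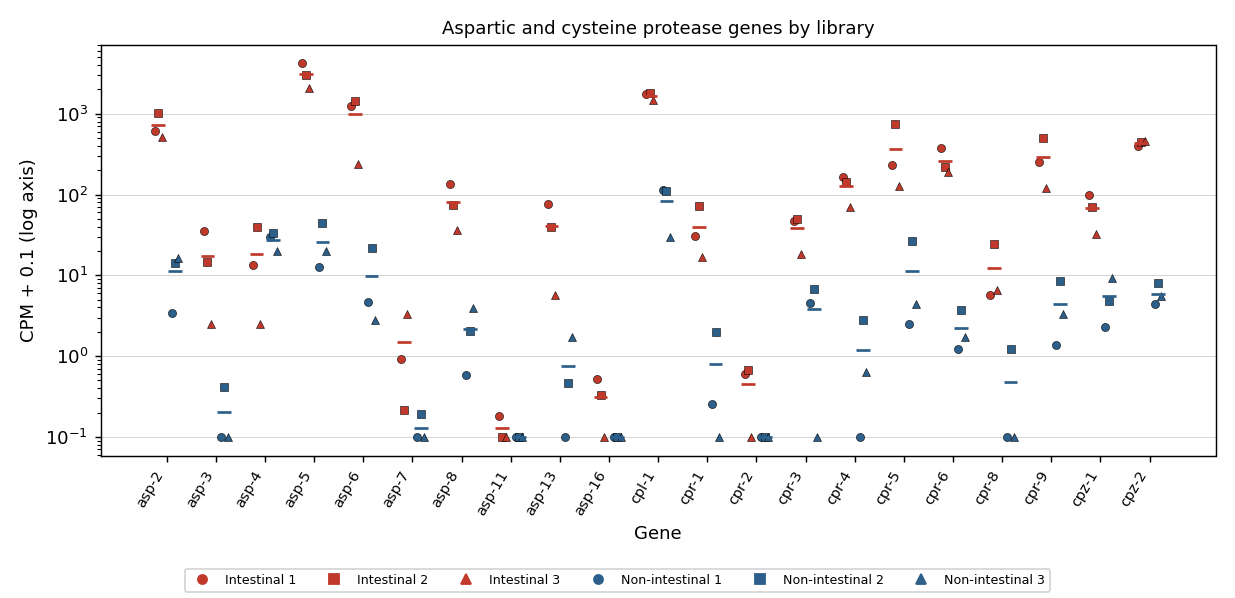
Levels of the 10 aspartic protease genes (asp) and the 11 cysteine protease genes (cpl, cpr, cpz) in each library, as CPM + 0.1 on a log axis, with a bar at the mean of 3 libraries. Intestinal and non-intestinal points are separate for 16 of the 17 tested genes and overlap for asp-4.

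Of the cysteine protease members, each of the 10 that could be tested was called higher in intestinal cells, with 2 calls (cpr-3 and cpr-8) that depended on single libraries. Their summed level was 3370.5, 4059 and 2524 CPM in the intestinal and 128, 173 and 54.2 CPM in non-intestinal libraries, with a ratio of the means of 28.0. Of the 11 genes, 10 rose, 0 fell and 1 was too low to test, beside 13.5% of all tested genes called higher. The median log2 fold change among the 10 tested genes was 5.24. This count and median include 4 genes (cpr-1, cpr-3, cpr-4 and cpr-8) that were tested because of their intestinal counts. The direction of these 4 is given as a description. Cathepsin L-like cpl-1 (T03E6.7, chrV:16592572-16595346, minus strand), which is needed for yolk processing in embryos, had 1759.8, 1786 and 1487 against 112, 109 and 29.8 CPM. Intestinal replicates were close together and far above the others, for a log2 fold change of 4.32 ± 0.56 (SE, adjusted p = 0.00081).

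Both cathepsin Z-like genes rose. For cpz-2 (M04G12.2, chrV:13381189-13383077, plus strand) the values were 404, 451 and 456 CPM in the intestinal and 4.29, 7.84 and 5.42 CPM in non-intestinal libraries. Both groups were tight, and the log2 fold change was 6.20 ± 0.57 (SE, adjusted p = 0.00034), or 6.86 without non-intestinal replicate 2. It overlaps gcy-34 on the opposite strand. The gene cpz-1 (F32B5.8, chrI:2686640-2689429, minus strand), known for a part in moulting, had 99.8, 70.2 and 32 against 2.22, 4.76 and 9.21 CPM. Intestinal libraries were all higher, for a log2 fold change of 3.69 ± 0.81 (SE, adjusted p = 0.0096), or 4.41 without non-intestinal replicate 3.

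The cathepsin B-like genes made up the rest of the family. For cpr-6 (C25B8.3, chrX:6607207-6609045, plus strand) the values were 376, 222 and 190.1 CPM in the intestinal and 1.11, 3.62 and 1.63 CPM in non-intestinal libraries. Its log2 fold change of 6.86 ± 0.75 (SE, adjusted p = 0.00040) was the largest among the cysteine proteases. The gene cpr-4 (F44C4.3, chrV:6614674-6615851, plus strand) had 166, 142 and 69.5 against 0, 2.72 and 0.542 CPM and a log2 fold change of 6.61 ± 1.17 (SE, adjusted p = 0.0033). Non-intestinal counts of cpr-4 were 0, 60 and 1, nearly all in replicate 2. Without that library too few counts of cpr-4 were left for a fold, and cpr-6 had a log2 fold change of 7.95. Against a floor of 3 counts per library, cpr-4 was then at least 119.7-fold higher. With 1 library left out, the fitted value of cpr-4 ran from 6.175 to 9.89, so it is no measure of size. The gene cpr-9 (F57F5.1, chrV:12003053-12004584, plus strand) had 251, 496 and 119.02 against 1.27, 8.47 and 3.25 CPM, and cpr-5 (W07B8.5, chrV:1132598-1134036, minus strand) had 229.9, 746 and 129 against 2.38, 26.7 and 4.34 CPM. For both, replicate 2 was the highest library in each group. The log2 fold changes were 6.00 ± 0.90 for cpr-9 (SE, adjusted p = 0.0015) and 5.00 ± 1.04 for cpr-5 (SE, adjusted p = 0.0077). Without intestinal replicate 2 they were 5.40 and 4.00, and without non-intestinal replicate 2 they were 7.38 and 7.08.

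Calls were less firm for the cathepsin B-like genes with few counts. The gene cpr-1 (C52E4.1, chrV:11975551-11976756, plus strand), a gut cathepsin B, had 30.5, 71.6 and 16.8 CPM in the intestinal and 0.159, 1.90 and 0 CPM in non-intestinal libraries. It rose, for a log2 fold change of 5.49 ± 1.2 (SE, adjusted p = 0.0093), or 4.83 without intestinal replicate 2. Its non-intestinal counts were 1, 42 and 0, too few for a fold without replicate 2. Against a floor of 3 counts per library, cpr-1 was then at least 37.7-fold higher. With 1 library left out, the fitted value of cpr-1 ran from 4.83 to 8.47, so it is no measure of size. The gene cpr-3 (T10H4.12, chrV:15296834-15298700, minus strand) had 47.6, 49.2 and 18.4 against 4.45, 6.61 and 0 CPM, for a log2 fold change of 3.29 ± 1.05 (SE, adjusted p = 0.048). For cpr-8 (W07B8.1, chrV:1134602-1139182, plus strand), 565 bases from cpr-5, the counts were 68, 425 and 8 against 0, 25 and 0 and the log2 fold change was 4.6 ± 1.47 (SE, adjusted p = 0.048). In CPM this was 5.63, 24.4 and 6.39 against 0, 1.13 and 0, without overlap. Both calls were close to the threshold. That of cpr-3 was lost without intestinal replicate 1 or 2 (adjusted p = 0.13 and 0.098) and without non-intestinal replicate 1 or 2 (adjusted p = 0.085 and 0.054), where the log2 fold change ran from 3.12 to 4.21. That of cpr-8 was lost without intestinal replicate 1 or 2 (log2 fold change 4.99 and 3.66, adjusted p = 0.083 and 0.17) and without non-intestinal replicate 1 or 3 (4.17 and 4.37, adjusted p = 0.091 and 0.062). Without non-intestinal replicate 2, where the rest of the group had 0 counts, cpr-8 was at least 11.6-fold higher. With 1 library left out, the fitted value of cpr-8 ran from 3.66 to 9.68, so it is no measure of size. The gene cpr-2 (F36D3.9, chrV:16532936-16534100, minus strand) had 6, 10 and 0 counts in intestinal and 0 in each non-intestinal library and was not tested.

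**Figure D4:**
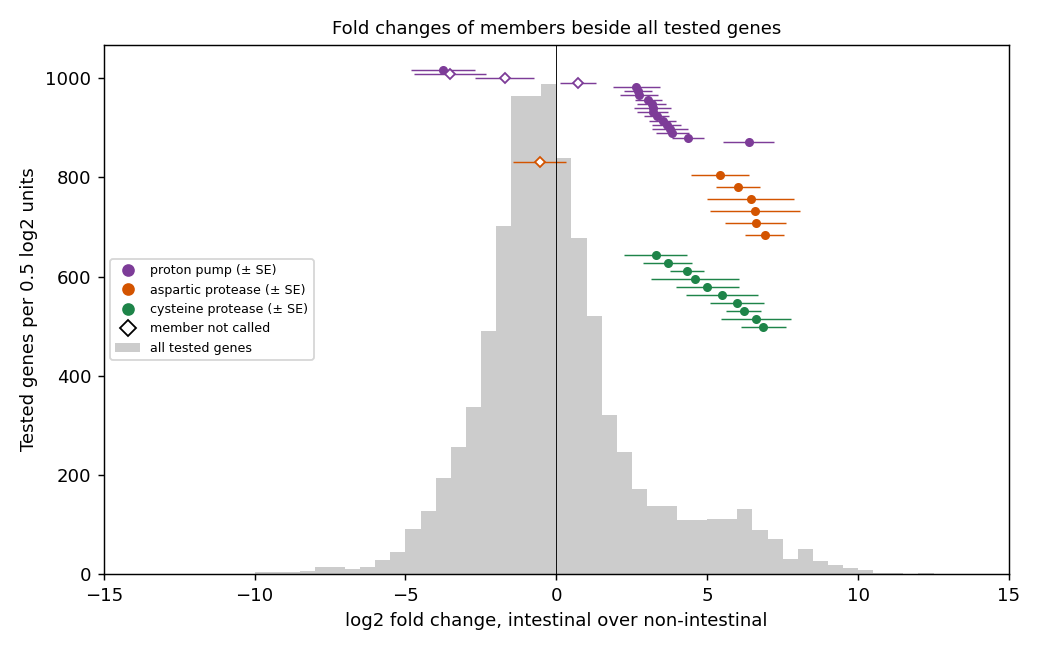
Log2 fold changes of the 35 tested members with their standard errors, over the distribution of all 9203 tested genes (grey, genes per 0.5 log2 units). Height orders the members within a class and carries no value. Pump genes called higher, other than vha-6, lie between 2.65 and 4.36, and vha-18, called lower, lies at −3.77. Called aspartic proteases lie between 5.43 and 6.91 and called cysteine proteases between 3.29 and 6.86. The fitted values of asp-3, cpr-1, cpr-4 and cpr-8 are no measure of size.

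Relative to intestinal cells, most pump genes kept a higher level in non-intestinal cells than the intestinal markers did, a difference that was not tested. For the 13 pump genes called higher other than vha-6, the mean non-intestinal level was 4.87 to 16% of the mean intestinal level. For vha-6 it was 1.16%, for the 6 called aspartic proteases 0.611 to 2.54% and for the 10 called cysteine proteases 0.808 to 9.61%. The same measure for the 8 intestinal markers was 0.0969 to 2.31%. Of these, elt-7, ges-1 and nhx-2 were within the floor of 3 counts in each non-intestinal library, so their percentages are no measure of size. All 13 of those pump genes exceeded the highest marker, as did 6 of the 16 called proteases, namely cpr-3, cpz-1, cpl-1, cpr-8, cpr-5 and asp-8. Summed over each group of genes, non-intestinal replicates 1, 2 and 3 had 10.2, 12.5 and 7.09% of the intestinal mean for the pump and 1.014, 2.33 and 1.30% for aspartic proteases. Cysteine proteases had 3.87, 5.21 and 1.63% and intestinal markers 0.672, 2.61 and 2.46%. In each of the 3 libraries the pump was above the markers. The part of intestinal RNA in the protease counts of non-intestinal libraries was not tested.

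**Figure D5:**
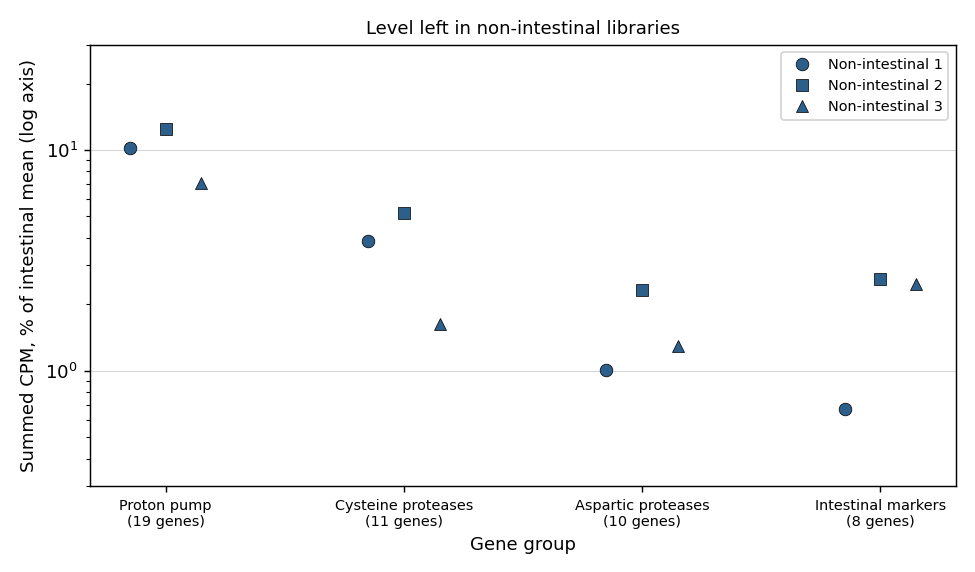
Summed level of each group of genes in each non-intestinal library, as a percent of the mean intestinal level, on a log axis. The pump lies at 7.09 to 12.5%, and the intestinal markers lie at 0.672 to 2.61%.

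The excretory canal cell and the coelomocytes are also known to be rich in the proton pump or in lysosomes. Excretory canal markers summed to 13.6 to 28.3 CPM in the intestinal and 43.2 to 142 CPM in non-intestinal libraries. In both groups exc-9 gave most of the sum except in intestinal replicates 1 and 3, where pgp-12 did. Of the 4 canal markers, exc-9 was called lower in intestinal cells (log2 fold change −2.89, adjusted p = 0.030) and pgp-12 higher (adjusted p = 0.014), with 95, 41 and 11 counts of pgp-12 against 0, 0 and 0. Since pgp-12 reached the filter level in 0 non-intestinal libraries, it was tested because of its intestinal counts. Its direction is given as a description. The canal gene aqp-8 had 0, 4 and 0 counts in the intestinal and 14, 0 and 0 in the non-intestinal libraries, and glt-3 had 7, 0 and 0 and 0, 0 and 0. Coelomocyte markers summed to 4.25 to 13.6 CPM in the intestinal and 4.77 to 5.48 CPM in non-intestinal libraries, with 0 of the 2 tested markers called.

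Replicates varied in a shared way. Of the 30 members called higher, 25 had their lowest intestinal level in replicate 3 and 21 their highest non-intestinal level in replicate 2. Over all 1246 genes called higher these shares were 61.5% and 52.6%. Within intestinal libraries the median SD of log2(CPM + 0.5) was 0.64 for tested pump genes, 1.45 for aspartic and 0.81 for cysteine proteases, beside 0.84 for all tested genes. The steadiest intestinal levels were those of cpz-2, vha-6, vha-11 and cpl-1, with SDs of 0.10, 0.11, 0.11 and 0.15, a choice made after their values were seen.

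By position, the protease members were gathered on chromosome V. It held 8 of the 10 aspartic and 9 of the 11 cysteine protease genes, beside 21.9% of all table genes with a known chromosome. Of the 19 pump genes, 7 lay on chromosome IV, 3 each on II, III and X, 2 on I and 1 on V. The shares of all such table genes were 16.1% for IV, 16.9% for II, 15.1% for III, 14.4% for X and 15.5% for I. Neighbouring members did not always have similar counts, as asp-5 and asp-11 (308 bases apart) and asp-8 and asp-7 (353 bases apart) show.

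The counts of members called were also taken under other settings. By DESeq2, 30 members were called higher and 2 lower, beside 18.3% and 15% of all tested genes. RLE scaling gave 30 and 2 members, beside 14.7% and 8.46%. Scaling by library totals alone gave 27 and 2, beside 11.5% and 14.4%. With no filter there were 30 and 2, beside 9.85% and 6.51% of 14605 genes. Both the replicate block and the fit without robust estimation gave 30 and 1, beside 15.1% and 9.84% with the block and 13.7% and 8.01% without robust estimation. At a threshold of 0.01 the counts were 24 and 0, beside 7.52% and 1.63%.

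The counts of members called also varied with the libraries used. Removal of intestinal replicate 1 left 26 members higher and 0 lower, beside 8.74% and 2.2% of the genes tested. Removing intestinal replicate 2 left 27 members higher and 0 lower, beside 11% and 7.21% of the genes tested. The fit that lacked intestinal replicate 3 called 29 members higher and 1 lower, beside 12.7% and 4.75% of the genes tested. For non-intestinal replicate 1, its removal left 27 members higher and 0 lower, beside 10.5% and 3.67% of the genes tested. In the fit that lacked non-intestinal replicate 2 there were 28 members higher and 0 lower, beside 12.8% and 3.94% of the genes tested. With non-intestinal replicate 3 removed there were 29 members higher and 1 lower, beside 13.2% and 4.94% of the genes tested.

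Other genes of the lysosome were read from lists chosen by function. Of 25 further hydrolase genes in the table, 9 rose, 0 fell, 9 were not called and 7 were too low to test, beside 13.5% of all tested genes called higher and 7.64% lower. The median log2 fold change among those tested was 3.98. Of the 9 that rose, 6 were below the filter level in at least 1 non-intestinal library (nuc-1, asah-1, asm-2, lipl-2, lipl-5 and pcp-3), so their direction is given as a description. The carboxypeptidase genes pcp-1, pcp-2, pcp-3 and pcp-4 rose, with log2 fold changes of 6.29, 4.96, 7.51 and 4.44 (adjusted p from 0.00042 to 0.010). The related gene pcp-5 was not called (log2 fold change −2.63, adjusted p = 0.15; DESeq2 adjusted p = 0.039), with each intestinal library, at 1.41, 1.90 and 0 CPM, below each non-intestinal one, at 7.79, 4.58 and 11.4 CPM. The gene pcp-1 had 342, 354 and 421 CPM in the intestinal and 1.91, 4.80 and 8.13 CPM in non-intestinal libraries. The acid deoxyribonuclease gene nuc-1 rose with 103, 100.1 and 17.6 against 4.77, 2.49 and 0 CPM, a log2 fold change of 4.82 ± 1.10 (SE, adjusted p = 0.011). Also higher were the lipase genes lipl-2 (6.72) and lipl-5 (5.99), the acid ceramidase gene asah-1 (4.32) and the acid sphingomyelinase gene asm-2 (6.62), as log2 fold changes with adjusted p from 0.0030 to 0.029. Leaving out 1 library at a time, asah-1 was called in 3 of 6 fits and asm-2 in 4. Since asm-2 had 0, 1 and 0 and lipl-5 0, 86 and 0 counts in the non-intestinal libraries, their fitted values are no measure of size. With 1 library left out, that of lipl-5 ran from 5.50 to 12.70, and DESeq2 gave lipl-5 no adjusted p.

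Of 12 genes for lysosomal membrane proteins and regulators, 4 rose and 8 were not called, beside 13.5% of all tested genes called higher. Of the 4 that rose, 3 were below the filter level in at least 1 non-intestinal library (lmp-2, cln-3.1 and cln-3.3), so their direction is given as a description. The membrane glycoprotein gene lmp-1, the counterpart of LAMP, had 2588, 3061 and 1742 CPM in the intestinal and 131, 312 and 229 CPM in non-intestinal libraries, a log2 fold change of 3.46 ± 0.47 (SE, adjusted p = 0.00091). This was close to the change of most pump genes. The others that rose were lmp-2 (6.68), cln-3.3 (4.56) and cln-3.1 (8.03), with adjusted p of 0.0010, 0.035 and 0.025. With 1 library left out at a time, cln-3.3 was called in 4 of 6 fits. The gene cln-3.1 had 0 counts in each non-intestinal library, so its fitted value is no measure of size, and 2 of the 3 fits in which it could be tested with 1 library left out called it. The TFEB counterpart hlh-30, a transcription factor that activates lysosomal genes, had 470.5, 291 and 194 against 306, 200.1 and 43.9 CPM. Its groups overlapped, for a log2 fold change of 0.80 ± 0.66 (SE, adjusted p = 0.42).

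Gut granules are lysosome-related organelles of the worm intestine. Of 8 genes for their formation or transporters, 3 rose, 4 were not called and 1 was too low to test, beside 13.5% of all tested genes called higher. Of the 3 that rose, 2 were below the filter level in at least 1 non-intestinal library (glo-1 and cdf-2), so their direction is given as a description. The Rab gene glo-1 had 43.8, 33.8 and 28.8 CPM in the intestinal and 0, 1.54 and 0 CPM in non-intestinal libraries, a log2 fold change of 5.67 ± 1.25 (SE, adjusted p = 0.0098). All non-intestinal counts of glo-1, 0, 34 and 0, were in replicate 2, and with 1 library left out its fitted value ran from 5.29 to 11.27, so it is no measure of size. The zinc transporter gene cdf-2 and the ABC transporter gene pgp-2 had log2 fold changes of 6.02 and 3.70 (adjusted p = 0.0033 and 0.025). The call of pgp-2 was made in 4 of 6 fits that left out 1 library. The HOPS complex tethers vesicles to lysosomes, and 0 of its 6 genes were called, with a median log2 fold change of 0.23 and adjusted p from 0.10 to 0.93. The nearest to the threshold, vps-41, had 6.88, 5.69 and 5.59 against 0.159, 0.951 and 1.08 CPM and no overlap between groups. Its unadjusted p by edgeR's test was 0.029. It reached the filter level in only 2 non-intestinal libraries, so its direction is given as a description. By DESeq2 at an adjusted p under 0.05, 1 of the 6 passed (vps-41), beside 18.3% of all genes called higher by DESeq2.

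Inhibitors and further relatives of the cysteine proteases were not called. The cystatin genes cpi-1 and cpi-2, inhibitors of papain-like proteases, had log2 fold changes of 0.36 ± 0.83 and 1.5 ± 1.2 (SE, adjusted p = 0.79 and 0.41). Their groups overlapped, with 16.5, 15.6 and 4.79 CPM of cpi-1 in intestinal and 11.4, 6.98 and 10.8 CPM in non-intestinal libraries. The papain family genes tag-196 and Y65B4A.2, which are no members by name, had log2 fold changes of −1.44 and −0.80 (adjusted p = 0.33 and 0.69) and overlapping groups.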

How the data were processed

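The authors deposited 1 table of raw counts, whole numbers per gene and library. STARsolo 2.7.10a and the builds WBcel235 and ce11 are named, per the submitters' processing notes. Strand use, molecular identifiers and the handling of reads with several positions are not given in the sources used here, so counts may include amplification copies, and intervals and floors cover counting error only. Of 15472 rows, 14605 worm gene rows were used. Rows with RIT names (0.376 to 0.782% of a library's counts), 41 spike-in rows (at most 0.0142%) and the reporter row stayed out. Symbols came from a RefSeq table of WBcel235, which held 14387 of the rows, and coordinates and overlaps from the Ensembl annotation of that build.

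The comparison used edgeR 4.0.16 (quasi-likelihood F test, R 4.3.3) with TMM scaling, robust estimation, group as the only term and filterByExpr (minimum count 10, minimum total 15), which left 9203 genes, 35 of the 40 members among them. Adjusted p-values are Benjamini-Hochberg values over all tested genes. Standard errors were derived from the F statistic. Alternatives were DESeq2 1.42.0, RLE, library totals, no filter, no robust estimation, a threshold of 0.01, a replicate block and leaving out each library. The script was tested on simulated data. Members, lists and tests were chosen with earlier results of these data known. The rule for named genes gave every member by role, with values by library for called members, a and c subunit genes and well-measured uncalled ones, and otherwise counts. The gene F57F5.1, put on a list of other papain family genes, was counted as the member cpr-9.

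After subtraction of the group means, log2 CPM correlated at 0.278, 0.157 and 0.279 between libraries with the same replicate number, and at −0.256 to 0.0695 between others, so equal numbers were taken as pairs in the replicate block alternative. The main test and the permutation tests were unpaired. No 2 libraries of a group agreed within counting noise (chi-square per degree of freedom at least 33.3).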

Additional observations from a re-analysis of the deposited data

How the results depend on the processing

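Under the alternatives, 423 of 455 values of the 35 tested members kept their direction and their side of the threshold, 28 lost the call, 4 gained it and 0 changed sign. Outside the threshold of 0.01, the 21 lost calls belonged to asp-3, asp-13, cpr-3, cpr-8, vha-3 and vha-18, and the gained ones to vha-7. The 14 pump genes called higher were 12 to 14, the 6 aspartic proteases 4 to 6 and the 10 cysteine proteases 8 to 10. Pump genes called lower were 1 in the main test and 2 with RLE scaling, with library totals alone, with no filter and by DESeq2, with vha-7 as the second, and 0 at a threshold of 0.01. Leaving out 1 library gave 0 to 1. The replicate block kept each of these counts.

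Leaving out 1 library gave differences in share of 71.4 to 80.8 percentage points for vha-6, −53.2 to −44.3 for unc-32, −15.6 to −7.20 for vha-5 and −20.01 to −5.69 for vha-7. For the c subunit genes, whose shares were not apart, it gave −5.04 to 1.28 for vha-1, −0.663 to 0.232 for vha-3 and −0.621 to 4.84 for vha-4. The sign changed without intestinal replicate 3 for vha-1 (1.28) and vha-4 (−0.621), and without intestinal replicate 1 (0.208) or non-intestinal replicate 3 (0.232) for vha-3, and the cause was not tested. Under library totals alone the median log2 fold change of all tested genes was −0.84 in place of −0.34, and 44.4% in place of 63.9% of calls were higher. The medians of pump, aspartic and cysteine genes were then 2.61, 5.83 and 4.80. Depth limits the rare members most, since 3 counts are 2.40 CPM in the smallest library on the TMM scale.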

Other observations

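The mitochondrial ATP synthase, the other rotary ATPase of these cells, runs the reverse reaction of the proton pump and was read for comparison. Of 9 synthase genes listed by the names atp, asb and asg, 8 were in the table. Subunit genes under other names were not read, so the list may hold only a part of the enzyme. Of the 8 genes, 5 rose in intestinal cells, 1 fell and 2 were not called, beside 13.5% of all tested genes called higher and 7.64% lower. The median log2 fold change was 1.30. Of the 5, atp-3 and atp-5 were each called in 2 of 6 fits that left out 1 library. With the replicate block atp-1 was called as well (edgeR adjusted p = 0.035 in place of 0.061). Their summed level was 16949, 14599.9 and 10659 CPM in intestinal and 5284, 6666 and 4749.9 CPM in non-intestinal libraries, a ratio of the means of 2.53 beside 10.1 for the proton pump. The difference between these ratios was not tested. The beta subunit gene atp-2 had 6101, 5715 and 4871 against 2178, 2406 and 2062 CPM and a log2 fold change of 1.33 ± 0.31 (SE; adjusted p by edgeR's test = 0.013).

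The b subunit of the synthase has a pair of genes that went opposite ways. The gene asb-2 had 1124, 1133 and 1007 CPM in intestinal and 239, 317 and 244 CPM in non-intestinal libraries and rose, with a log2 fold change of 2.03 ± 0.39 (SE; adjusted p by edgeR's test = 0.0048). The gene asb-1, known from the germline, had 25.3, 37.3 and 22.4 against 106, 174 and 85.6 CPM and fell, with a log2 fold change of −2.10 ± 0.58 (SE; adjusted p by edgeR's test = 0.026), a call made in 1 of 6 fits that left out 1 library. Germline markers were lower in intestinal libraries as well, and their part in the level of asb-1 was not tested.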
